A study of Mus musculus with 6 samples.

Results

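The endothelial marker genes Pecam1, Cdh5, Kdr, Flt1, Tek, Tie1, Emcn, Esam, Vwf and Cd34 were followed in sorted basal cells of the developing mouse prostate. The 10 genes were taken by symbol out of 36163 named genes or transcripts on the array, and all 10 were represented, by 13 probes. The cells came from prostates of 6-day-old male FVB/N mice carrying the Tg 11.5kb-GFP transgene, in which a fragment of the s-SHIP promoter drives GFP, and none was treated. They were sorted as LSC cells, that is, negative for lineage markers (Lin) and positive for Sca-1 and CD49f, and then divided into LSC GFP+ and LSC GFP- cells, so that both populations carried the transgene and passed the same gate. Each population had 3 independent samples, numbered 1 to 3, each on 1 one-colour Agilent array. The Lin antibodies bind Ter119 (erythroid cells), CD45 (leukocytes) and CD31, the protein encoded by Pecam1. One of the members therefore encodes the antigen by which endothelial cells were to be discarded. The comparison shows, probe by probe, how the signals of the member genes differed between the 2 sorted populations.

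Endothelial cells line blood vessels and are recognised by a small set of adhesion molecules and receptors. Kdr and Flt1 are the receptors of vascular endothelial growth factors, whereas Tek and Tie1 form the angiopoietin receptor pair. Pecam1, Cdh5 (VE-cadherin) and Esam hold neighbouring endothelial cells together, Vwf is the clotting protein that endothelial cells store, and Emcn and Cd34 are sialomucins of the cell surface. Several of these genes are also used by other cells. Pecam1, Tek, Esam and Cd34 are found in blood cells, Vwf in platelets, and Cd34 in fibroblasts and hair follicle cells. In these bulk samples, fewer cells of a type and less RNA per cell cannot be told apart.

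The oligonucleotides behind the most informative contrasts are shown, because the results depended on the probe as well as on the gene. They are given in the 5′ to 3′ direction with genome positions (mm9) as the scanner files list them, and capitals mark the longest run of G and C letters in each.
Kdr, single-spot probe, chr5:76330395-76330454, minus strand: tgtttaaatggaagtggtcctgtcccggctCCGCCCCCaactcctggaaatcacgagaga
Kdr, 10-spot probe, chr5:76329309-76329368, minus strand, first 30 of 60 bases: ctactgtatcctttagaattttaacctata
Tie1, chr4:118144132-118144191, minus strand: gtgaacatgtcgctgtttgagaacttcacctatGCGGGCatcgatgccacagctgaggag
Tek, chr4:94540624-94540683, plus strand: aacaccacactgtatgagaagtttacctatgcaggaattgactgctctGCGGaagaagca
Pecam1, chr11:106540864-106540923, minus strand: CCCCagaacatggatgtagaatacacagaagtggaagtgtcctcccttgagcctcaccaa
The single-spot Kdr probe had 55.0% G and C and a run of 8 such letters, and a run at least that long was present in 1.50% of the 55681 probes. The 10-spot Kdr probe, which lies further along the same transcript, had 35.0%. Over the 13 member probes G and C made up 35.0% to 55.0%, against a median of 43.3% on the array. The Tie1 and Tek probes lie at corresponding places in these related receptors, since 39 of 57 overlapping bases (68.4%) were identical without gaps. The remaining probes lie at chr8:106668159-106668218 (Cdh5), chr5:148373791-148373850 and chr5:148465976-148466035 (Flt1), chr3:137086389-137086448 (Emcn), chr9:37345795-37345854 (Esam), chr6:125636551-125636610 (Vwf), and chr1:196787392-196787451 and chr1:196785280-196785339 (Cd34).

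All values below are log2 signals relative to the 75th percentile of the same array, so that a difference of 1 between arrays is a doubling of the signal. A probe was called well above background on an array by the scanner software's own flag. Levels of different probes cannot be set against each other on an array, and comparisons are between arrays for 1 probe. Between 36651 and 42123 of the 55681 probes were well above background on each array, and no spot was saturated. One array stood apart for the endothelial genes, namely LSC GFP- replicate 3, and differences are given with and without it. Of the 13 member probes 8 had their highest value on that array (61.5%), against 16.6% of all probes on the array. It was also the only array on which 3 of the 13 were well above background, against 703 of all probes (1.26%).

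**Figure D1:**
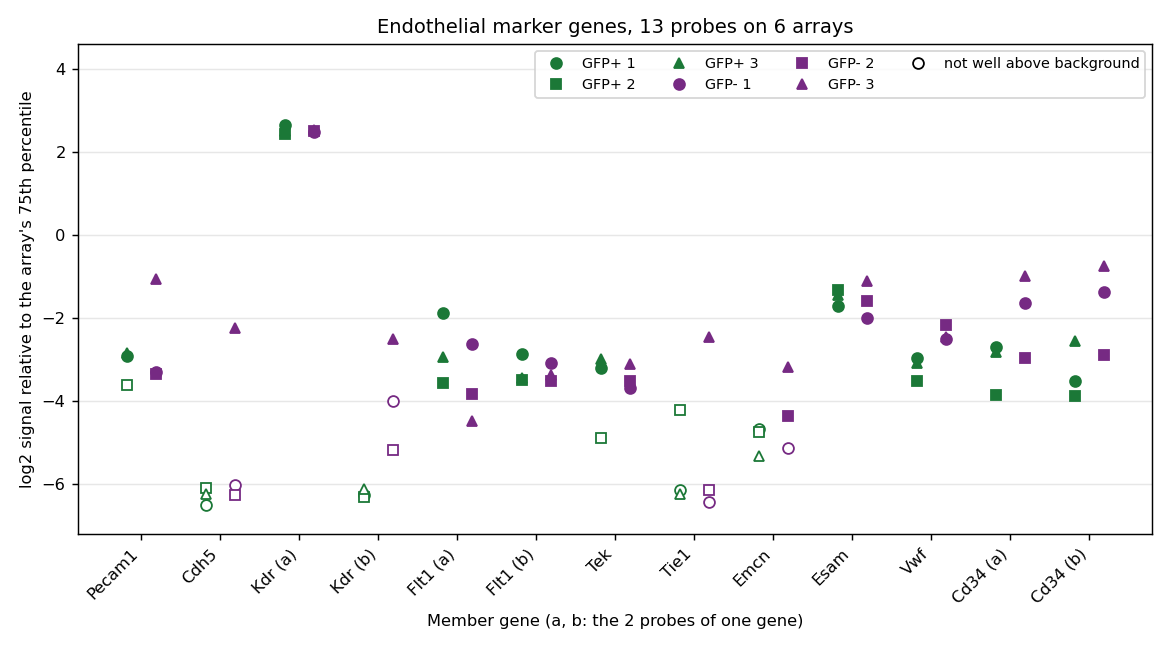
Log2 signal relative to the array's 75th percentile (vertical axis) for each of the 13 member probes (horizontal axis) on the 3 LSC GFP+ arrays (green) and the 3 LSC GFP- arrays (purple), 1 point per array and open where the probe was not well above background. The purple triangle, LSC GFP- replicate 3, is the highest point for 8 of the 13 probes and the only filled point for Cdh5, the 10-spot Kdr probe (b) and Tie1.

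Among the junctional genes, the Lin antigen gene Pecam1 was detected in both populations. Its signals were -2.91, -3.61 and -2.86 in LSC GFP+ replicates 1 to 3 and -3.30, -3.35 and -1.07 in LSC GFP- replicates 1 to 3, and only the value of LSC GFP+ replicate 2 was not well above background. The first 2 LSC GFP- samples lay within the range of the LSC GFP+ samples, and the third lay above all of them. The difference, LSC GFP+ minus LSC GFP-, was -0.55 ± 0.59 (log2, SE, n = 3 per population, limma adjusted p = 0.996). Without LSC GFP- replicate 3 it turned to 0.20 ± 0.29.

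Cdh5, the adhesion molecule of endothelial junctions, was well above background on a single array. Its signals were -6.51, -6.10 and -6.25 in LSC GFP+ cells and -6.02, -6.28 and -2.24 in LSC GFP- cells. On LSC GFP- replicate 3 it was at least 4.23-fold higher than on its LSC GFP+ counterpart of the same number, and at least 3.73-fold higher than on any other array, the dim arrays being set at the lowest signal that was well above background there. Taken over the 3 LSC GFP- arrays no bound on a fold between populations could be given. Their mean reading lay below the mean of the lowest signals well above background on the LSC GFP+ arrays.

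Esam, the third junctional gene, was well above background on all 6 arrays. It gave -1.72, -1.33 and -1.45 in LSC GFP+ cells and -2.01, -1.60 and -1.11 in LSC GFP- cells, so that the populations overlapped. The difference was 0.07 ± 0.27 (SE), and without LSC GFP- replicate 3 it was 0.30 ± 0.25. Its highest value was again on LSC GFP- replicate 3.

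The 2 probes of the growth factor receptor Kdr gave different pictures. The 10-spot probe read -6.27, -6.31 and -6.13 in LSC GFP+ cells and -4.01, -5.17 and -2.51 in LSC GFP- cells. It was called well above background on LSC GFP- replicate 3, where all 10 spots passed, and on no other array. All 3 LSC GFP- readings lay above all 3 LSC GFP+ readings. The other 5 readings did not reach the call, so that they give no measured level for this probe. Of its 10 spots, 4 passed in LSC GFP- replicate 1 and 1 in LSC GFP- replicate 2, and on the LSC GFP+ arrays no spot passed that was not itself discarded as an outlier. The 10 spots on LSC GFP- replicate 3 ran from -2.77 to -2.31 (SD 0.17), and the SD between spots of the other arrays was 0.14 to 0.61. The signal there was at least 3.52-fold higher than on LSC GFP+ replicate 3 and at least 2.83-fold higher than on any other array. With the LSC GFP+ arrays set at their lowest signal well above background, the mean of the 3 LSC GFP- readings was higher by 0.52 (log2). Only 1 of these 3 readings was well above background, so that 0.52 is no lower bound. The probe did not enter the test. With no filter on dim probes it differed by -2.34 (limma unadjusted p = 0.00724, adjusted p = 0.504), a difference taken against background readings. In that fit the gene was still counted by its other probe.

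The single-spot Kdr probe was bright and flat. It read 2.64, 2.44 and 2.50 in LSC GFP+ cells and 2.49, 2.51 and 2.52 in LSC GFP- cells. Its whole range over the 6 arrays was 0.198, and 0.522% of the tested probes had a range no wider, the median range being 0.828. The difference was 0.02 ± 0.18 (SE), and 0.03 ± 0.22 without LSC GFP- replicate 3. On the array where all 10 spots of the first Kdr probe were high, the second Kdr probe read 2.52, beside 2.49 and 2.51 on the other LSC GFP- arrays.

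**Figure D2:**
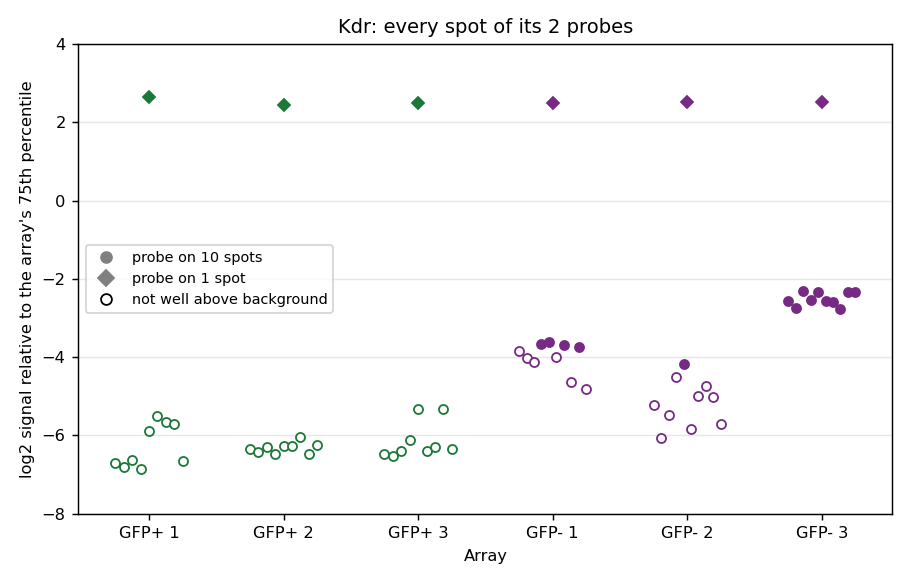
Every spot of the 2 Kdr probes that was kept (circles, the probe on 10 spots; diamonds, the probe on 1 spot) as log2 signal relative to the array's 75th percentile (vertical axis) on each array (horizontal axis), with open symbols not well above background. The diamonds stay between 2.44 and 2.64, whereas the circles are all filled on LSC GFP- replicate 3 and lie there between -2.77 and -2.31.

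Flt1, the second receptor of the vascular endothelial growth factors, was the only member with a positive difference in all 3 same-number pairs for one of its probes. The probe towards the end of the transcript read -1.88, -3.58 and -2.95 in LSC GFP+ cells and -2.63, -3.84 and -4.47 in LSC GFP- cells, lowest on LSC GFP- replicate 3, where most members were highest. Its pair differences were 0.74, 0.26 and 1.53, although the populations overlapped. The difference was 0.84 ± 0.55 (SE, 1.80-fold, adjusted p = 0.872), and 0.43 ± 0.55 without LSC GFP- replicate 3. It was 0.27 under normexp background correction, and 1.35 without LSC GFP- replicate 1 (limma unadjusted p = 0.0294). Blocked by replicate number, the unadjusted p moved from 0.165 to 0.0247 and the adjusted p was 0.259. The other Flt1 probe read -2.86, -3.51 and -3.46 against -3.09, -3.51 and -3.37 and differed by 0.05 ± 0.24 (0.02 ± 0.29 without LSC GFP- replicate 3), so that the 2 probes of this gene gave unlike differences.

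Of the angiopoietin receptors, Tek gave -3.19, -4.90 and -2.98 in LSC GFP+ cells and -3.68, -3.52 and -3.12 in LSC GFP- cells. The low value of LSC GFP+ replicate 2 was not well above background, and the other 5 values lay close together. The difference was -0.25 ± 0.48 (SE, adjusted p = 0.996). It was -0.09 ± 0.55 without LSC GFP- replicate 3, and turned to 0.36 without LSC GFP+ replicate 2.

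Tie1, the partner of Tek, followed Cdh5 and not Tek. Its signals were -6.15, -4.22 and -6.25 in LSC GFP+ cells and -6.43, -6.15 and -2.47 in LSC GFP- cells, and only the last was well above background. That value was at least 3.62-fold above LSC GFP+ replicate 3 and at least 3.19-fold above any other array. No bound on a fold between the populations could be given.

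Emcn, a sialomucin of capillary and venous endothelium, gave -4.66, -4.76 and -5.32 in LSC GFP+ cells and -5.12, -4.36 and -3.18 in LSC GFP- cells. The arrays of LSC GFP- replicate 2 and LSC GFP- replicate 3 had it well above background, and no LSC GFP+ array did. On LSC GFP- replicate 3 it was at least 2.21-fold above LSC GFP+ replicate 3. With the LSC GFP+ arrays set as for Kdr, the mean LSC GFP- reading was higher by 0.20 on the log2 scale. This is no lower bound, since LSC GFP- replicate 1 was not well above background. Like Cdh5 and Tie1, Emcn was not tested, since no population had it well above background on all 3 arrays.

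Vwf and Cd34 were the 2 members that passed an unadjusted p of 0.05, both lower in LSC GFP+ cells, and neither passed after Benjamini-Hochberg adjustment. Vwf gave -2.97, -3.52 and -3.09 in LSC GFP+ cells and -2.50, -2.17 and -2.45 in LSC GFP- cells. Every LSC GFP- value was above every LSC GFP+ value, and the array that stood apart for the other genes did not stand apart here. The difference was -0.82 ± 0.22 (SE), 1.77-fold higher in LSC GFP- cells (limma unadjusted p = 0.00642, adjusted p = 0.297). Without LSC GFP- replicate 3 it was -0.86 ± 0.27 (limma unadjusted p = 0.0139). Under normexp background correction the difference was smaller, -0.38 (limma unadjusted p = 0.0314).

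Cd34 was lower in LSC GFP+ cells by both of its probes. The probe with the higher mean read -2.70, -3.86 and -2.83 in LSC GFP+ cells and -1.64, -2.97 and -0.99 in LSC GFP- cells, and the second probe -3.53, -3.89 and -2.54 against -1.38, -2.91 and -0.75. Each LSC GFP- sample was above the LSC GFP+ sample of the same number, but LSC GFP- replicate 2 overlapped the LSC GFP+ samples. The differences were -1.26 ± 0.52 (limma unadjusted p = 0.0421, adjusted p = 0.599) and -1.64 ± 0.57 (limma unadjusted p = 0.0202, adjusted p = 0.454). Without LSC GFP- replicate 3 they were -0.82 ± 0.49 and -1.18 ± 0.54, and the unadjusted p was 0.137 and 0.0653. Under normexp background correction the first probe differed by -0.67 (limma unadjusted p = 0.0341), and without LSC GFP- replicate 1 by -1.15 (limma unadjusted p = 0.103).

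Altogether 7 of the 10 members had a probe that could be tested, and Cdh5, Tie1 and Emcn did not. At an unadjusted p under 0.05, 2 of the 7 were lower in the LSC GFP+ population and none was higher, beside 4.53% of all 37005 probes tested that were lower and 3.38% that were higher. No member passed after adjustment, and 1 probe of all those tested did (0.0027%). For Vwf alone of the 7 genes, by the brighter probe of each, the populations did not overlap, as for 12.3% of all probes tested. With 3 samples against 3 an exact permutation test of a single probe cannot give a two-sided p below 0.1. The median difference over the 7 genes was -0.25, beside -0.0044 over all probes tested, with 3 genes positive and 4 negative. Of the negative genes, Pecam1 and Tek were well above background on 2 of the 3 LSC GFP+ arrays. They entered the test through the LSC GFP- arrays. With the filter on all 6 arrays 5 genes remained, with a median of 0.02. Without LSC GFP- replicate 3 the median over the 7 genes was 0.03. Blocking by replicate number, 5480 probes in place of 2925 passed an unadjusted p of 0.05, and of the members Flt1 passed besides Vwf and Cd34.

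**Figure D3:**
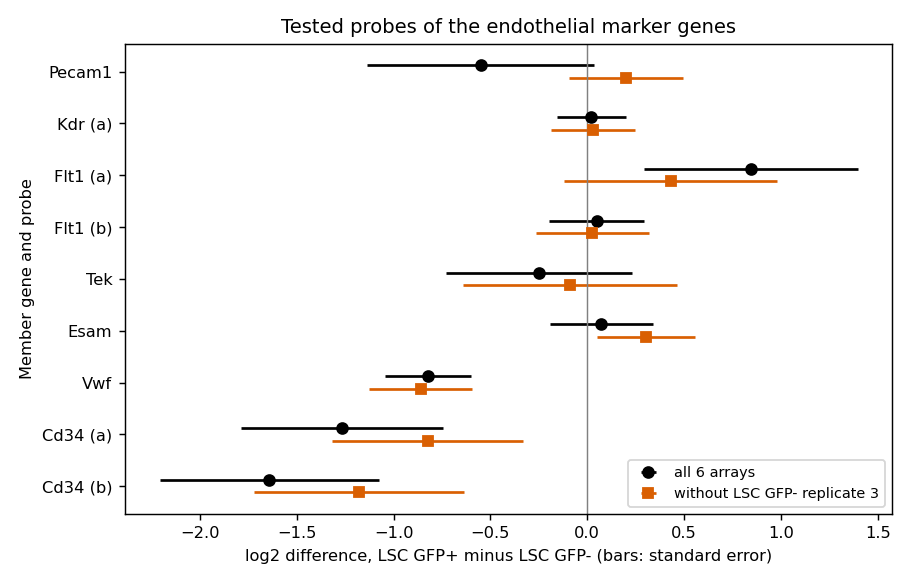
Difference of log2 signal, LSC GFP+ minus LSC GFP- (horizontal axis), for the 9 tested probes of 7 member genes (vertical axis), with all 6 arrays (black circles) and without LSC GFP- replicate 3 (orange squares), bars giving the standard error. Vwf stays near -0.8 in both fits, Cd34 moves towards 0, and Pecam1 crosses 0.

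The 300 bases around the transcription start, 250 before it and 50 after, were examined for 6 members (RefSeq, GRCm38.p6), Cd34, Emcn, Flt1, Kdr, Tek and Tie1. Transcription factors of the ETS family, among them Erg, govern many endothelial genes and bind short purine-rich sites. The letters AGGAAG, or CTTCCT on the other strand, were present in 4 of the 6 (Cd34, Emcn, Flt1 and Tie1) and in 35.4% of 32851 promoters of that length. Shown are the promoters of the 3 among them with a probe that was well above background on LSC GFP- replicate 3 and on no LSC GFP+ array, with these letters in capitals.
Tie1 promoter, chr4:118489800-118490099, minus strand: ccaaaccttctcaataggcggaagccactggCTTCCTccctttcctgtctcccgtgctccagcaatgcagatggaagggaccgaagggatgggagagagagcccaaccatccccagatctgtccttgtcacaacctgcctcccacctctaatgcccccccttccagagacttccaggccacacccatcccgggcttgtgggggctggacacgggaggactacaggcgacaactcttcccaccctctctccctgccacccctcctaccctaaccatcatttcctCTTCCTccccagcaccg
Emcn promoter, chr3:137340828-137341127, plus strand: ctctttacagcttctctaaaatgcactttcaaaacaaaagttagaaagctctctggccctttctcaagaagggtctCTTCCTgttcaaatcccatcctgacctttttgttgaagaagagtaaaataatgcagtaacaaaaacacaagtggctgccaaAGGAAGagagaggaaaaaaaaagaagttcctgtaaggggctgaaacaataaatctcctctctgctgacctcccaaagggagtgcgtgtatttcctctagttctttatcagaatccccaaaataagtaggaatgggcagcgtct
Kdr promoter, chr5:75978406-75978705, minus strand: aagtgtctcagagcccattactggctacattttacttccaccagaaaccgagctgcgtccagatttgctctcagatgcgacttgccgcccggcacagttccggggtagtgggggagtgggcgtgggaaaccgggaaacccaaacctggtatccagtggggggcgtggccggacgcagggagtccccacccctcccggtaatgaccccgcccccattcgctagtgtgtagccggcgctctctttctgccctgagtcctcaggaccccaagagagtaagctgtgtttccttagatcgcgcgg
The Tie1 and Emcn windows each held 2 matches and the Kdr window none. A match is a run of letters and not evidence of binding.

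The same comparison was made for 20 further endothelial genes with 26 probes. Of the 13 that could be tested, 2 passed an unadjusted p of 0.05 with a lower LSC GFP+ signal, beside 4.53% of all probes tested. None of the 13 passed after adjustment. The median difference of the 13 was -0.44, and -0.40 without LSC GFP- replicate 3. These were Icam2, an adhesion molecule (-0.87 ± 0.31, limma adjusted p = 0.477), and S1pr1, the receptor of sphingosine-1-phosphate on endothelium and lymphocytes (-1.05 ± 0.42, limma adjusted p = 0.563). All 3 LSC GFP- arrays, but only 1 of the 3 LSC GFP+ arrays, had S1pr1 well above background, so that it entered the test through the population where it was high, and it was not tested where all 6 arrays had to be well above background. Under normexp background correction the differences were -0.45 for Icam2, which then did not pass, and -0.38 for S1pr1. Without LSC GFP- replicate 3 neither passed, and with the replicate block 4 genes passed as lower and 1, Mmrn2, as higher. Of the 26 probes 17 (65.4%) were highest on LSC GFP- replicate 3, against 16.6% of all probes on the array. Among the 17 were probes of Sox17, Sox18, Ecscr and Eltd1 that were well above background on no array.

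The same array thus stood apart for some endothelial genes outside the 10. It did not for Eng, Mmrn2, Gpihbp1 and the brighter probes of Plvap and Nos3, which were highest on other arrays. That Plvap probe varied little, between -1.59 and -1.29 on the 6 arrays. The other Plvap probe was highest on LSC GFP- replicate 3, at -2.05 against -4.77 to -3.53 on the other arrays. Cd93, a C-type lectin of endothelium and myeloid cells, gave -0.67 on LSC GFP- replicate 3 and between -4.56 and -2.91 on the other 5 arrays. The tight junction gene Cldn5 gave -1.75 there and between -3.77 and -2.87 elsewhere, and Rasip1, a regulator of vessel lumen formation, -2.30 against -3.93 to -3.68. Both probes of the ETS factor Erg, and 1 of 2 probes of the endothelial phosphatase Ptprb, were well above background there and on no other array. Robo4, the endothelial Roundabout receptor, was well above background on LSC GFP+ replicate 3 (-3.97) and LSC GFP- replicate 3 (-2.48), the samples with the same number. For 7 of the 26 probes, among them those of Sox17, Sox18, Ecscr and Eltd1, no array gave a signal well above background. The summed linear signal of the 13 tested genes ran from 2.33 to 3.25 times the 75th percentile signal in LSC GFP+ cells. In LSC GFP- cells it ran from 2.82 to 4.55, the highest being LSC GFP- replicate 3. The brightest probes weigh most in this sum.

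Of the 7 genes for ligands of these receptors, 6 could be tested. At an unadjusted p under 0.05, 2 passed with a higher LSC GFP+ signal, beside 3.38% of all probes tested that were higher. Neither passed after adjustment. Pgf, which encodes placental growth factor, a ligand of the Flt1 receptor, gave 1.18, 0.50 and 0.38 in LSC GFP+ cells and -0.45, -0.75 and -0.55 in LSC GFP- cells. Angpt1, the activating ligand of the Tek receptor, gave -0.81, 0.36 and -0.52 against -1.76, -1.38 and -1.32. Neither gene overlapped between the populations, as for 12.3% of all probes tested. The differences were 1.27 ± 0.26 (limma adjusted p = 0.148) and 1.16 ± 0.32 (limma adjusted p = 0.301), and without LSC GFP- replicate 3 they were 1.29 and 1.25. Vegfa, Vegfb, Vegfc and Angpt2, with differences between -0.23 and 0.13, did not pass the test. Figf, a ligand of the lymphatic receptor, was well above background on LSC GFP- replicate 3 and on no other array.

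**Figure D4:**
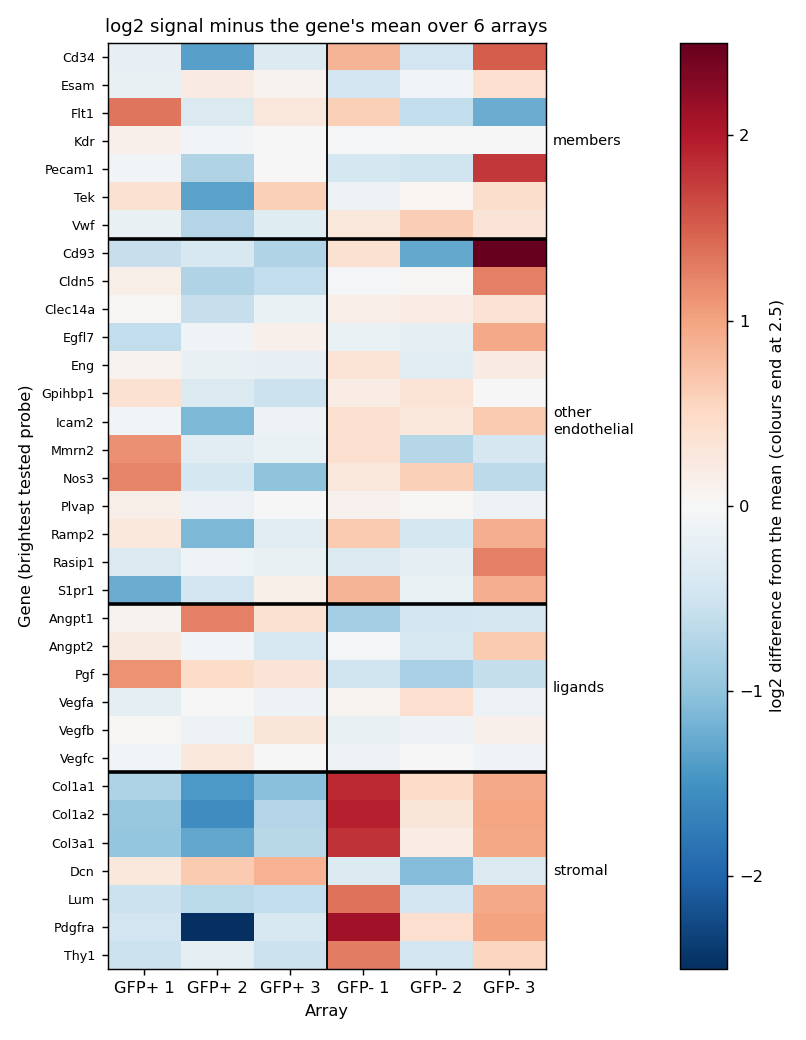
Log2 signal of each gene minus its mean over the 6 arrays (colour, ending at 2.5 in either direction) on the LSC GFP+ (left) and LSC GFP- (right) arrays, for the tested genes (vertical axis) among the members, the other endothelial genes, the ligands and the stromal markers. LSC GFP- replicate 3 is reddest for Pecam1, Cd34, Cd93, Cldn5 and Rasip1, Pgf and Angpt1 are red on the LSC GFP+ side, and the stromal collagens are reddest on LSC GFP- replicate 1.

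Markers of other cell types were compared in the same way, and none of those named here passed after adjustment. Of the 7 stromal markers (Pdgfra, Dcn, Lum, Col1a1, Col1a2, Col3a1 and Thy1) 5 passed an unadjusted p of 0.05 as lower in LSC GFP+ cells. Dcn alone passed as higher. The shares over all probes tested were 4.53% lower and 3.38% higher. The median difference of the 7 markers was -1.97, and without LSC GFP- replicate 3 there were 4 lower and 1 higher. Pdgfra, 1 of the 5, was well above background on 2 of the 3 LSC GFP+ arrays and entered the test through the LSC GFP- arrays. With the filter on all 6 arrays, 4 of 6 were lower, Dcn was higher, and the median was -1.59. The summed signal of the 7 markers was 18.1 to 24.5 times the 75th percentile in LSC GFP+ and 20.8 to 58.3 in LSC GFP- cells. Such sums are weighted to the brightest probes, among them Dcn, which averaged 3.70 in LSC GFP+ and 2.51 in LSC GFP- cells. Of 8 tested smooth muscle and pericyte markers 6 were lower at the same p, with and without LSC GFP- replicate 3. Their sum was 6.95 to 10.4 in LSC GFP+ and 19.9 to 37.8 in LSC GFP- cells. For 6 of the 7 stromal probes the highest array was LSC GFP- replicate 1 and for none was it LSC GFP- replicate 3. Taken relative to each gene's mean over the 6 arrays, the 7 averaged 1.43, -0.10 and 0.71 on LSC GFP- replicates 1 to 3. Of the 9 smooth muscle and pericyte probes 6 were highest on LSC GFP- replicate 1. The probe of the pericyte gene Rgs5 was highest on LSC GFP- replicate 3 (1.30). Markers of luminal epithelium and of erythroid cells were in part high on LSC GFP- replicate 3. All 4 probes of the luminal keratins Krt8, Krt18 and Krt19 had their highest value there and the next highest on LSC GFP+ replicate 3. None passed the test between the populations. The haemoglobin gene Hbb-b1 was well above background on LSC GFP- replicate 3 (-4.04) and on no other array, but read -4.27 on LSC GFP+ replicate 3. Hba-a1, the other haemoglobin gene, gave -1.06, 0.27 and 2.06 in LSC GFP+ cells and 0.06, -0.04 and 1.52 in LSC GFP- cells, highest on the 2 arrays of replicate 3. Of the leukocyte markers 6 were tested and none passed, none of their 13 probes was highest on LSC GFP- replicate 3, and Lyz2 stayed near background throughout. Ptprc, which encodes the Lin antigen CD45, lay between -1.54 and -1.39 on all 6 arrays. The part of these other cell types in the differences of Cd34 and Vwf, and in the endothelial signals of LSC GFP- replicate 3, was not tested.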

How the data were processed

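RNA from LSC GFP+ cells and LSC GFP- cells, 3 samples each, was amplified, labelled with Cy3 and hybridised to SurePrint G3 Mouse GE 8×60K arrays on 1 slide. The authors deposited scanner files of Agilent Feature Extraction (11.0.1.1 in the file headers, 10.7.3.1 in the submitters' processing notes), whose processed signal is a background-corrected intensity per spot with quality flags. A deposited table of the whole series holds the same intensity rounded (largest relative difference 0.004962). Here outlier spots were left out, spots of 1 probe averaged as log2 signal, and the array's 75th percentile subtracted. A probe was well above background where more than 50% of its kept spots carried that flag, and was tested when this held on all 3 arrays of a population (37005 of 55681 probes). The number of arrays limits the precision. The test was limma 3.58.1 (R 4.3.3; lmFit, eBayes, Benjamini-Hochberg over all tested probes), checked on simulated data. A gene was counted by its brightest tested probe.

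Every member was described by every probe, with its genes compared in other lists. The members and lists were chosen with earlier results of these data known. Nothing states whether the samples came from separate animals or pools, so p-values measure the spread between these samples. Same-number samples deviated together over all tested probes (correlations 0.43, 0.28 and 0.67), a pairing inferred from the data, and a fit with the number as a block was made beside the unblocked one. Further alternatives were normexp background correction, quantile and median scaling, other filters, an intensity trend, the methods' t-test and leaving out each sample. Some markers of other cell types are not reported here. Slide and scan are shared by all arrays. Promoters were matched by symbol for 6 of the 10 members. Probe positions (mm9) have no exon annotation here.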

Additional observations from a re-analysis of the deposited data

How the results depend on the processing

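Of the members, 2 passed an unadjusted p of 0.05 as lower in LSC GFP+ cells, and 1 under quantile normalization, scaling by the array median, no filter on dim probes and the methods' t-test, Vwf remaining each time. This count ran from 1 to 2 when samples were left out in turn, at 1 (Vwf) without LSC GFP+ replicate 1 or 2 or LSC GFP- replicate 3. Without LSC GFP- replicate 1 the 2 were Vwf and Emcn, which then entered the test through the LSC GFP- arrays, Cd34 did not pass, and the Flt1 probe towards the end of the transcript passed as higher, the gene being counted there by its other probe. The members' median difference ran from -0.63 (without LSC GFP- replicate 1) to 0.028 (without LSC GFP- replicate 3), and was -0.61 without LSC GFP+ replicate 3. It was -0.080 under normexp, 0.021 with the filter on all 6 arrays and -0.54 with no filter. Normexp brought the difference of Vwf to -0.38, Cd34 to -0.67, Flt1 to 0.27, Tek to -0.080 and Esam to 0.0043. The number of other endothelial genes called, 2, was 1 under normexp, quantile normalization, median scaling, the filter on all 6 arrays and the intensity trend, 0 under the t-test, and 0 to 4 with samples left out (0 without LSC GFP+ replicate 2 or LSC GFP- replicate 3). With the replicate number as a block, 5 other endothelial genes (1 of them higher) and 5480 probes were called, and Flt1 joined Vwf and Cd34. The 2 ligands, Pgf and Angpt1, were called in every alternative run. Of the probes called, 57.3% were lower in LSC GFP+ cells, but 46.9% under median scaling, 43.6% under the t-test and 68.7% without LSC GFP+ replicate 1. Direction turned for Pecam1 (0.20 without LSC GFP- replicate 3, range with a sample left out -0.94 to 0.20), Kdr (-0.020 under quantile normalization, -0.036 to 0.063 with a sample left out), Tek (0.36 without LSC GFP+ replicate 2) and Esam (-0.15 without LSC GFP- replicate 1, -0.012 without LSC GFP+ replicate 2, up to 0.30 without LSC GFP- replicate 3), none of which passed the test. The cause was not tested. Signal over background limits Cdh5, Tie1, Emcn and the 10-spot Kdr probe to bounds between single arrays.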

Other observations

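Of the lymphatic endothelial genes, Prox1, the transcription factor of lymphatic identity, was well above background on all 6 arrays and differed by 0.11 between the populations, whereas Lyve1, a hyaluronan receptor, was well above background on LSC GFP+ replicate 2 alone and Flt4, the lymphatic growth factor receptor, on no array. None of the 3 probes was highest on LSC GFP- replicate 3.

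The mean profile of the 7 tested members, each centred on its own mean, was 0.17, -0.63 and 0.04 in LSC GFP+ replicates 1 to 3 and 0.10, -0.14 and 0.46 in LSC GFP- replicates 1 to 3. Of the 33845 probes that every array had well above background, the 5 whose centred profile lay closest to it differed by a root mean square of 0.0593 to 0.0937. Frmpd1, a scaffold protein gene, and Rapgef4, which encodes a cAMP-activated exchange factor, were among them, and the other 3 were probes of transcripts without a gene symbol. This likeness rests on 6 arrays that share their populations and replicate numbers.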
